A study of Caenorhabditis elegans with 6 samples.

Results

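Lysozymes and small secreted defence peptides of *C. elegans* were followed across the 6 libraries of this series. The members were all genes whose name starts with lys-, ilys-, abf-, cnc-, fip- or fipr-, and 36 of the 12798 genes in the table met this rule. They comprised 6 lys, 2 ilys, 3 abf, 6 cnc, 3 fip and 16 fipr genes. The gene name list used here holds 69 genes with these prefixes, and the other 33 were not analysed here, because the authors' filtered table lists none of their exons.

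The study asked how worms respond to the loss or to a point mutation of *sdhb-1*, which encodes the iron-sulphur subunit of succinate dehydrogenase (complex II of the respiratory chain). Poly(A) RNA of whole worms, grown on OP50 bacteria without treatment, was sequenced from 6 pools of animals, 1 library per condition. The wild-type pools (WT) were Bristol N2 larvae at the L2, L3 and L4 stages. The *gk165* pool consisted of L2 larvae of genotype *sdhb-1(gk165)*, a deletion that takes away the first exons of *sdhb-1* and part of the neighbouring gene *cup-15*, and whose carriers arrest as L2 larvae. The R244H pool consisted of L4 larvae that carry a transgene with the Arg244His mutation and become sterile adults. Its label gives the genotype as *sdhb-1(gk165)/mIn1;R244H*, with *gk165* over a balancer chromosome. In the paper's strain list this balancer carries a *dpy-10* mutation and a GFP transgene. The text of the paper describes R244H animals as having the transgene on the deletion background. Label and text thus differ on whether an intact *sdhb-1* copy was present, which was not resolved here. The WTR pool consisted of L4 larvae of genotype *sdhb-1(gk165);WTR*, in which a wild-type transgene replaces the deleted gene. The deletion was thus shared by *gk165*, R244H and WTR, and a transgene by R244H and WTR.

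Lysozymes cleave the peptidoglycan wall of bacteria, and *C. elegans* holds both protist-type (lys) and invertebrate-type (ilys) enzymes, many of them made in the intestine. The abf genes encode defensin-like antibacterial factors. The caenacins (cnc) and the fungus-induced proteins (fip) with their relatives (fipr) are short secreted peptides, several of which are made in the epidermis and are known to be induced there when the cuticle is wounded or penetrated by fungi.

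The libraries were shallow, with totals from 188742 reads in WT (L2) to 867446 in WT (L4), and 279254 and 405789 reads in *gk165* and R244H. The targeted gene *sdhb-1* had 5 reads in *gk165* and 32 to 165 reads in the other libraries. Levels are given as reads pooled over the listed exons of a gene and as RPKM, in which reads are scaled by the length of those exons and by the size of the library. A gene was counted as higher or lower when its reads scaled to library size (CPM) differed by at least 2-fold, with 3 or fewer reads set to a floor of 3 reads per library, and for a mutant when this held against both of its controls. Genes with 3 or fewer reads in the mutant and in at least 1 control could not be compared. With 1 library per condition there is no replicate check, so no test between genotypes or stages was possible, and the 95% intervals below (exact Clopper-Pearson) compare 2 libraries and cover counting error alone. Since whole worms were sequenced, fewer cells of a type and less RNA per cell cannot be told apart.

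Of the 36 genes, 14 had more than 3 reads in every library, 17 exceeded 20 reads in at least 1 library, and *abf-2* and *cnc-11* never exceeded 3 reads. The highest mean level over the 6 libraries was that of the invertebrate-type lysozyme *ilys-5*, at 664 RPKM. It was followed by *fipr-21* at 572, the caenacin *cnc-4* at 313, the lysozyme *lys-1* at 219.6 and *cnc-8* at 208 RPKM. The map of levels shows that a few genes in each family carried most of its reads, while most fipr genes lay near the limit of what these libraries could show.

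**Figure D1:**
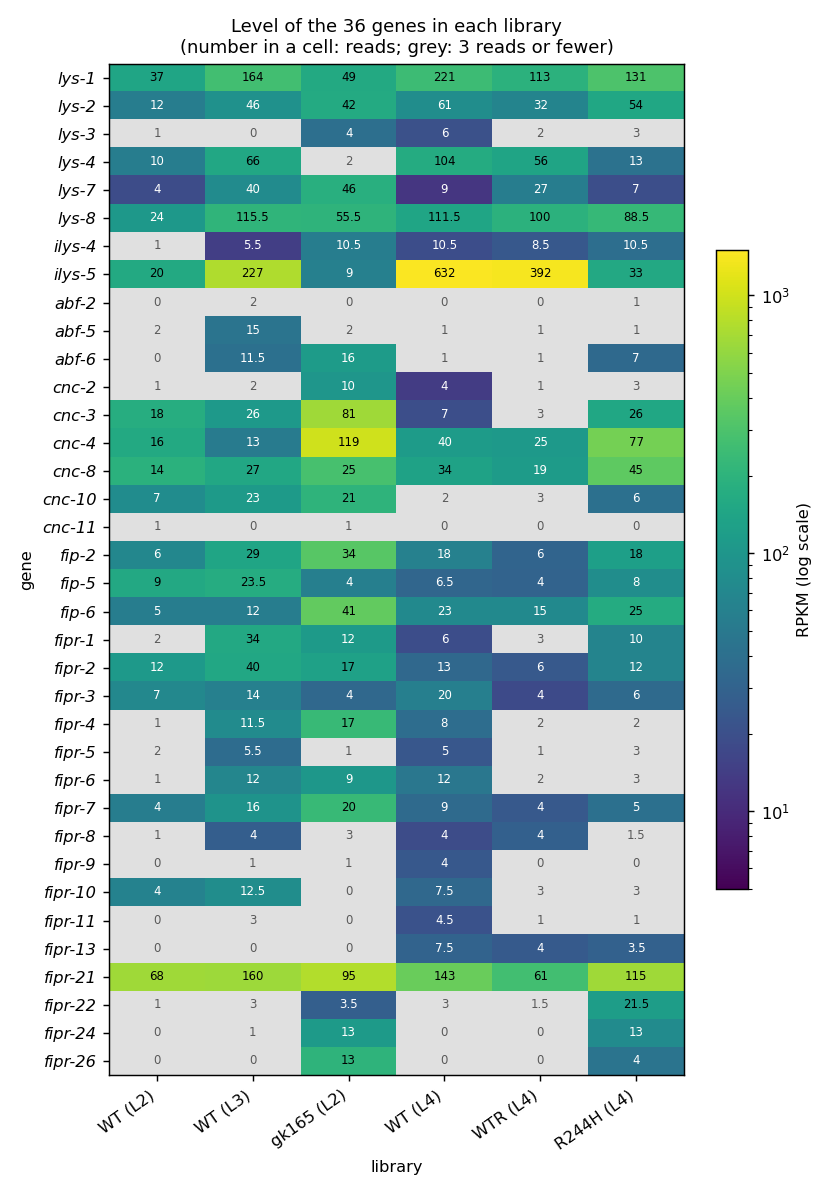
Level of the 36 genes (one line each, ordered by family) in the 6 libraries (columns), with colour giving RPKM on a log scale, the number in each cell giving reads, and grey marking 3 reads or fewer. In *gk165*, *cnc-4* (119 reads) and *cnc-3* (81 reads) stand out, and *ilys-5* is bright in WT (L4) and WTR (632 and 392 reads) and dim in R244H (33 reads).

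In both mutants a larger share of these genes than of all genes lay above the controls, most of them peptides, and the members below the controls were the lysozymes *ilys-5* and *lys-4* and, in *gk165*, *fip-5*. Against both WT (L2) and WT (L3), 12 of the 28 members that could be compared (42.9%) were at least 2-fold higher in *gk165*, where the same held for 15.1% of all genes compared. They were the lysozymes *lys-7* and *ilys-4*, the defensin-like *abf-6*, the caenacins *cnc-2*, *cnc-3* and *cnc-4*, the fungus-induced *fip-2* and *fip-6*, and *fipr-4*, *fipr-7*, *fipr-24* and *fipr-26*. For all 12 the counting interval excluded no change against both controls, as it did for 11.7% of all genes. The 3 members that were lower, against 17.9% of all genes, were *ilys-5*, *lys-4* and *fip-5*, which is 10.7% of the members. With WT (L3) as the only control, 5 of 31 members were lower, against 25.3% of all genes, *abf-5* and *fipr-10* being the other ones, and with WT (L2) alone 4 of 28, against 21.7%.

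In R244H, 11 of the 25 members that could be compared (44%) were at least 2-fold higher than in both WT (L4) and WTR, against 11.4% of all genes. They were *abf-6*, *cnc-3*, *cnc-4*, *cnc-8*, *cnc-10*, *fip-2*, *fip-5*, *fip-6*, *fipr-1*, *fipr-22* and *fipr-24*, all of them peptides. For 9 of the 11 the interval excluded no change against both controls, against 7.4% of all genes, and *cnc-10* and *fip-5* were the other members. Only *ilys-5* and *lys-4* were lower, which is 8% of the members against 21.9% of all genes.

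Low reads bear on these counts, since a gene that could be compared through the mutant alone had to lie above a control. Of the 18 members with more than 3 reads in both controls of *gk165*, 6 were higher (*cnc-3*, *cnc-4*, *fip-2*, *fip-6*, *fipr-7* and *lys-7*), against 8.84% of all such genes. The other 6 were among the 10 members with 3 or fewer reads in a control, where 31.9% of all such genes were higher. In R244H, 5 of 18 members with more than 3 reads in both controls were higher (*cnc-4*, *cnc-8*, *fip-2*, *fip-5* and *fip-6*), against 7.26% of all such genes. Of the 7 others 6 were higher, against 52%. Lower calls were open only to genes with more than 3 reads in both controls. Of these, 3 of 18 members were lower in *gk165*, against 24.6% of such genes, and 2 of 18 in R244H, against 24.2%. A few reads above 3 in a control were often still too few for a lower call, and the share of genes so limited was not computed. The low counts of lower members are thus no sign that these genes are seldom lower. With a floor of 10 reads, 5 members were higher in *gk165* and 6 in R244H. The share of all genes was not computed at this floor, so these counts have no background to be read beside.

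The median log2 ratio of the members was 1.41 for *gk165* to WT (L2) and 0.88 for *gk165* to WT (L3), beside 0.17 and -0.10 for all genes compared. In R244H it was 0.70 against WT (L4) and 1.17 against WTR, beside -0.19 and -0.25 for all genes. Among genes with at least 10 reads, the median log2 ratios were 0.27 and -0.57 for *gk165* and -0.48 and -0.45 for R244H, in the same order. Relative to these medians, 15 members were higher and 2 lower in *gk165*, without *fip-5*, where 15.9% of all genes compared were higher and 14.5% lower. In R244H, 16 members were higher and 2 lower relative to the medians, where 20.8% of all genes were higher and 13.2% lower. Against single controls, *gk165* was higher for 16 of 28 members beside WT (L2), where 23.5% of all genes were, and for 14 of 31 beside WT (L3), where 21.1% were. R244H was higher for 13 of 33 members beside WT (L4), where 15% of all genes were, and for 15 of 25 beside WTR, where 17.4% were.

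Of the members higher than both controls, 6 were on both lists: *abf-6*, *cnc-3*, *cnc-4*, *fip-2*, *fip-6* and *fipr-24*. This is 50% of the list of *gk165* and 54.5% of that of R244H. For all genes called higher, the shared 312 genes were 26.5% and 28.3% of these lists. Of the members compared, however, 42.9% and 44% were on the lists, beside 15.1% and 11.4% of all genes. Lists that take a larger share overlap more in any case, and the overlap of the members was not tested. Both lysozymes of the R244H list of lower genes, *ilys-5* and *lys-4*, were also on that of *gk165*, where they made up 66.7%, and for all genes called lower the shared part was 20.3% of the *gk165* list and 13.5% of the R244H list. The mutants were set against different libraries, and the difference between the mutants was not tested.

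**Figure D2:**
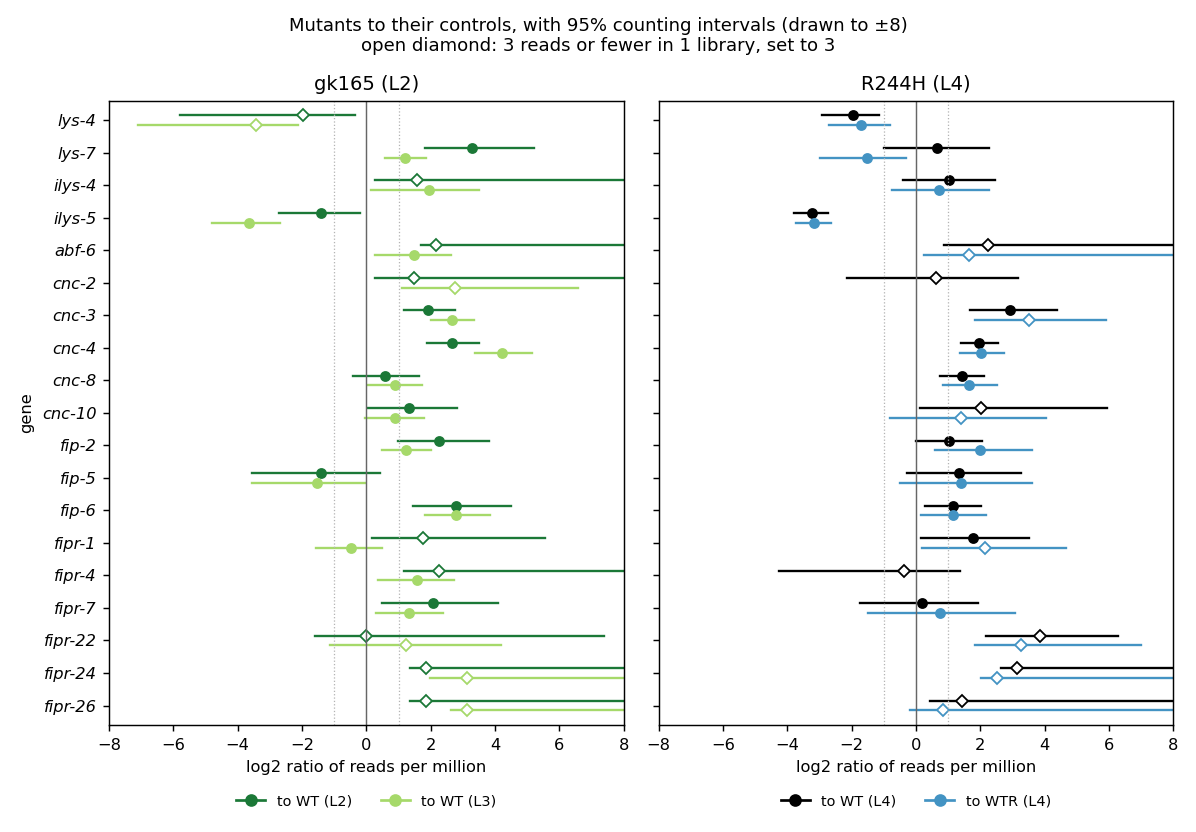
Log2 ratio of CPM of each mutant to its controls (x axis) for the members counted in either mutant (y axis), *gk165* on the left to WT (L2) and WT (L3), R244H on the right to WT (L4) and WTR, with 95% counting intervals drawn to ±8, dotted lines at 2-fold, and open diamonds where a library had 3 reads or fewer, set to 3. *ilys-5* and *lys-4* lie left of 0 in all 4 ratios and *cnc-3*, *cnc-4* and *fip-6* right of 0 in all 4, while *fip-5* lies left of 0 in *gk165* and right of 0 in R244H.

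*ilys-5*, on chromosome X (X:6533493-6536840, reverse strand, WBcel235), was the most abundant member and the one with the largest deficit in R244H. It had 20, 227, 632 and 392 reads in WT (L2), WT (L3), WT (L4) and WTR (159, 755, 1464 and 1391 RPKM), against 9 reads (60.3) in *gk165* and 33 (156) in R244H. Its level thus climbed from stage to stage in the wild-type libraries and was about the same in both L4 controls, while R244H stood at the level of WT (L2) and *gk165* below every other library. Log2 ratios of R244H were -3.23 (95% interval -3.78 to -2.72) to WT (L4) and -3.16 (-3.71 to -2.64) to WTR. That of *gk165* was -3.65 (-4.79 to -2.69) to WT (L3) but only -1.40 (-2.72 to -0.20) to the stage-matched WT (L2).

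*lys-4*, a protist-type lysozyme on chromosome IV (IV:11621443-11623174), showed a like pattern at a lower level. It had 10, 66, 104 and 56 reads in WT (L2), WT (L3), WT (L4) and WTR (55.6, 153, 168 and 139 RPKM), and 2 reads (9.35) in *gk165* and 13 (42.9) in R244H. Both mutants were below all 4 control libraries. Log2 ratios of R244H were -1.97 (-2.93 to -1.13) to WT (L4) and -1.69 (-2.69 to -0.80) to WTR. From the 2 reads in *gk165*, the ratio was -2.57 (-5.80 to -0.34) to WT (L2) and -4.03 (-7.11 to -2.12) to WT (L3), and with a floor of 10 reads *lys-4* was not counted in *gk165*.

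*lys-7*, which is known as a target of the insulin-pathway factor DAF-16 and of responses to bacterial infection, was one of the lysozymes that were higher in *gk165*, the other being *ilys-4*, which had fewer reads. It had 4, 40, 9 and 27 reads in WT (L2), WT (L3), WT (L4) and WTR (18.9, 78.7, 12.3 and 56.7 RPKM), with 46 (182) in *gk165* and 7 (19.6) in R244H. The *gk165* library was the highest, by a log2 ratio of 3.27 (1.82 to 5.21) to WT (L2) and 1.21 (0.57 to 1.86) to WT (L3). R244H had no clear place, since both L4 controls differed from each other: its log2 ratio was 0.67 (-0.99 to 2.26) to WT (L4) and -1.53 (-2.98 to -0.30) to WTR.

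*lys-1*, *lys-2*, *lys-3* and *lys-8* were counted in neither mutant. *lys-1*, an intestinal lysozyme at V:10277827-10279127, had 37, 164, 221 and 113 reads in WT (L2), WT (L3), WT (L4) and WTR (144, 266, 249.7 and 196 RPKM), with 49 (160.2) in *gk165* and 131 (302) in R244H. No mutant ratio of *lys-1* reached 2-fold, and the highest was a log2 of 0.63 (0.25 to 1.0) for R244H to WTR. *lys-8* on chromosome II had 24, 115.5, 111.5 and 100 reads in the same control libraries (105, 211, 142 and 195 RPKM), 55.5 (204) in *gk165* and 88.5 (230) in R244H, with log2 ratios between -0.05 and 0.96. Its exons overlap *C17G10.13* on the opposite strand, and its pooled reads were not whole numbers. *lys-2* was at least 2-fold higher in each mutant than in 1 control only, at log2 1.56 for *gk165* to WT (L2) and 1.17 for R244H to WTR. *lys-3* had at most 6 reads in any library. The invertebrate-type lysozyme *ilys-4*, which was counted as higher in *gk165*, had 1, 5.5, 10.5 and 8.5 reads in WT (L2), WT (L3), WT (L4) and WTR, and 10.5 in each mutant. On these few reads its log2 ratio in *gk165* was 3.14 (0.26 to 8.51) to WT (L2) and 1.94 (0.15 to 3.49) to WT (L3), and in R244H 1.03 (-0.39 to 2.45) to WT (L4) and 0.72 (-0.76 to 2.28) to WTR.

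**Figure D3:**
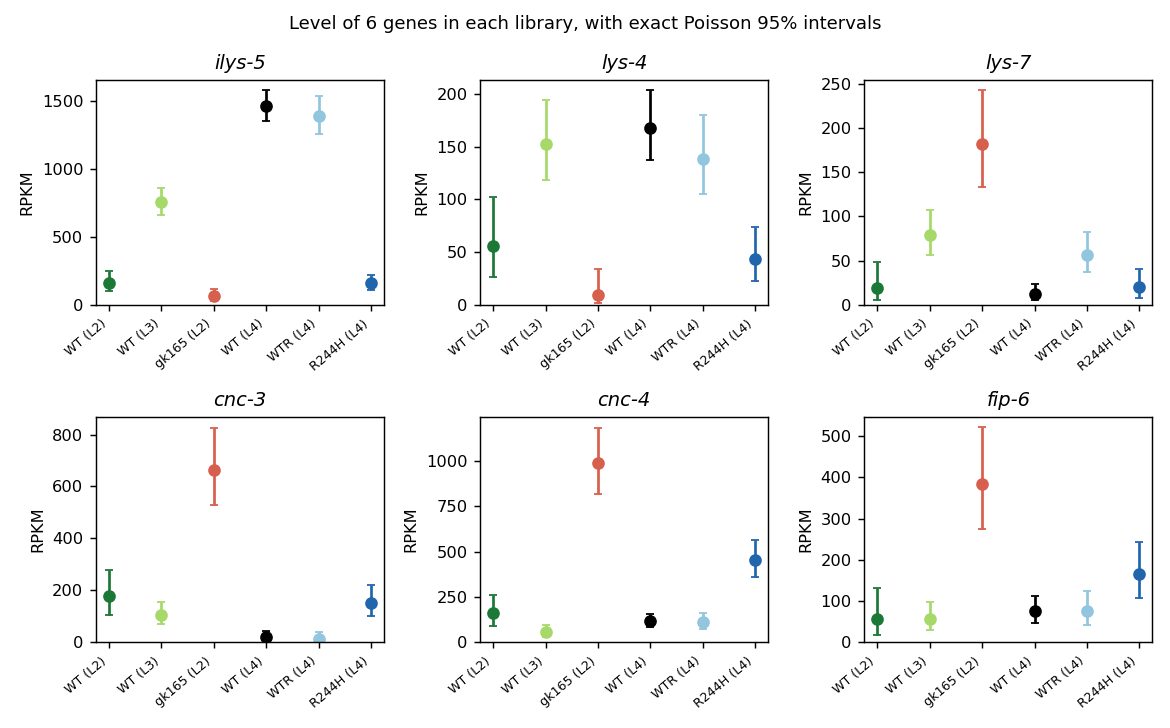
RPKM (y axis) of 6 members in the 6 libraries (x axis), 1 point per library with exact Poisson 95% intervals of its reads. *ilys-5* and *lys-4* are low in *gk165* and R244H, *lys-7* is highest in *gk165* (182 RPKM), and *cnc-3*, *cnc-4* and *fip-6* are highest in *gk165* (665, 990.2 and 384.5 RPKM) with R244H above both of its L4 controls.

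The caenacins gave the clearest excess in both mutants. 3 of the 5 cnc genes that could be compared were higher in *gk165*, against 15.1% of all genes, and 4 of 4 in R244H, against 11.4%. None was lower, but *cnc-2* in *gk165* and *cnc-3* and *cnc-10* in R244H could not have been called lower. They had 3 or fewer reads in a control and were compared through the mutant alone. *cnc-4* (V:1447195-1447707) had 16, 13, 40 and 25 reads in WT (L2), WT (L3), WT (L4) and WTR (158, 53.7, 115 and 110.1 RPKM), against 119 (990.2) in *gk165* and 77 (452) in R244H. Both mutant libraries were above all 4 controls. The log2 ratio of *gk165* was 2.65 (1.89 to 3.50) to WT (L2) and 4.21 (3.38 to 5.16) to WT (L3), and that of R244H was 1.98 (1.41 to 2.56) to WT (L4) and 2.04 (1.37 to 2.75) to WTR.

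Its neighbour *cnc-3*, which follows *cnc-4* on the same strand (V:1448004-1448790), differed from it in its course over the stages. *cnc-3* had 18, 26, 7 and 3 reads in WT (L2), WT (L3), WT (L4) and WTR (176, 106, 19.9 and 13 RPKM), with 81 (665) in *gk165* and 26 (151) in R244H. R244H was therefore far above the L4 controls, and lay between WT (L3) and WT (L2). The log2 ratio of *gk165* was 1.92 (1.17 to 2.75) to WT (L2) and 2.65 (2.0 to 3.35) to WT (L3), and that of R244H was 2.92 (1.68 to 4.37) to WT (L4) and, on 3 reads, 3.53 (1.82 to 5.90) to WTR. *cnc-2*, the caenacin induced through DBL-1 signalling upon fungal infection, had 10 reads in *gk165* and 1 to 4 in the other libraries.

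*cnc-8* on chromosome X had 14, 27, 34 and 19 reads in WT (L2), WT (L3), WT (L4) and WTR (191, 154, 135 and 116 RPKM), 25 (287) in *gk165* and 45 (365) in R244H. It was above both controls in R244H, with log2 ratios of 1.44 (0.76 to 2.12) and 1.66 (0.86 to 2.52), and short of 2-fold in *gk165*, at 0.59 (-0.41 to 1.64) and 0.90 (0.06 to 1.74). *cnc-10* had 7, 23, 2 and 3 reads in these controls (81.0, 111, 6.72 and 15.5 RPKM), 21 (204) in *gk165* and 6 (41.2) in R244H. Its R244H excess rests on 6 reads, and the interval to WTR reached from -0.81 to 4.04.

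Of the 3 fungus-induced genes, *fip-6* (I:8945533-8946205) was higher in both mutants. It had 5, 12, 23 and 15 reads in WT (L2), WT (L3), WT (L4) and WTR (55.8, 55.8, 74.5 and 74.5 RPKM), with 41 (384.5) in *gk165* and 25 (166) in R244H. All 4 controls lay close together and *gk165* stood apart, with log2 ratios of 2.79 (1.45 to 4.48) and 2.78 (1.83 to 3.85), while R244H was 1.15 (0.27 to 2.03) above WT (L4) and 1.15 (0.17 to 2.18) above WTR. With RPKM averaged over exons, *fip-6* and *fip-2* were not counted in R244H.

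*fip-2* had 6, 29, 18 and 6 reads in WT (L2), WT (L3), WT (L4) and WTR (70.7, 143, 61.7 and 31.5 RPKM), 34 (337) in *gk165* and 18 (126) in R244H. The *gk165* library was above every control, at log2 2.25 (0.98 to 3.80) and 1.24 (0.48 to 2.01). R244H was 2.0 (0.60 to 3.62) above WTR and only 1.03 above WT (L4), at the edge of the 2-fold rule. Its exons overlap *T27E4.5* on the opposite strand.

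*fip-5* went opposite ways in the 2 mutants, on few reads. It had 9, 23.5, 6.5 and 4 reads in these controls (156, 170.2, 32.8 and 30.9 RPKM), 4 (58.4) in *gk165* and 8 (82.4) in R244H. Of its 4 mutant intervals, only that of *gk165* to WT (L3) excluded no change, at log2 -1.54 (-3.56 to -0.03).

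Among the 16 fipr genes, 4 of 11 were higher in *gk165*, against 15.1% of all genes, and 3 of 10 in R244H, against 11.4%. None was lower in either. With 3 or fewer reads in a control, *fipr-1*, *fipr-4*, *fipr-6*, *fipr-22*, *fipr-24* and *fipr-26* in *gk165* could not have been called lower. The same held for *fipr-1*, *fipr-22*, *fipr-24* and *fipr-26* in R244H. A few more reads could still be too few. With 0 reads in *gk165* against 4 in WT (L2), *fipr-10* had a floored log2 ratio of -0.665. In R244H, *fipr-8* had 1.5 reads against 4 in each L4 control, and floored log2 ratios of 0.62 and 0. The absence of lower fipr genes thus says little about most of this family. *fipr-21*, next to *fip-5* and *cnc-8* on chromosome X, held the most reads of the group in every library and was not counted in any comparison. It had 68, 160, 143 and 61 reads in WT (L2), WT (L3), WT (L4) and WTR (664, 652, 405.5 and 265 RPKM), 95 (779.7) in *gk165* and 115 (666) in R244H. It differed little between WT (L2), WT (L3) and *gk165*, and R244H was 0.72 (0.35 to 1.08) and 1.33 (0.87 to 1.80) above its L4 controls on the log2 scale.

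The genes of this group that stood out were nearly silent in the controls. *fipr-22* (I:14155470-14156316) had 1, 3, 3 and 1.5 reads in the 4 controls and 3.5 in *gk165*, against 21.5 reads (121 RPKM) in R244H. Log2 ratios of R244H were 3.87 (2.17 to 6.29) to WT (L4) and 4.26 (1.85 to 7.01) to WTR. The neighbouring *fipr-24* had 13 reads in each mutant and 1 read in all controls together, in WT (L3). Set against the floor of 3 reads per library, *fipr-24* in R244H was 8.85-fold above WT (L4) and 5.78-fold above WTR. In *gk165* it was 3.65-fold above WT (L2). The intervals of these 3 ratios began at log2 2.64, 2.02 and 1.36. *fipr-26*, beside *fip-6* on chromosome I, had 13 reads in *gk165*, 4 in R244H and none in any control. Against the same floor, *gk165* was 3.65-fold above WT (L2) and 8.73-fold above WT (L3), with intervals that began at log2 1.36 and 2.62.

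*fipr-1* and *fipr-2*, a divergent pair at V:12361301-12365866, were both highest in WT (L3). *fipr-1* had 2, 34, 6 and 3 reads in WT (L2), WT (L3), WT (L4) and WTR (22.2, 157, 19.3 and 14.8 RPKM), 12 (112) in *gk165* and 10 (65.8) in R244H. R244H was 1.77 (0.17 to 3.51) above WT (L4) and 2.15 (0.20 to 4.65) above WTR, while *gk165* lay between its controls. *fipr-2* had 12, 40, 13 and 6 reads in these controls (110.1, 153, 34.7 and 24.5 RPKM), 17 (131) in *gk165* and 12 (65.4) in R244H, with mutant log2 ratios from -0.22 to 1.42. The remaining 10 fipr genes had at most 20 reads in any library, the highest being *fipr-7* in *gk165* and *fipr-3* in WT (L4).

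Of the 3 abf genes, only *abf-6* could be compared between a mutant and both of its controls. It had 0, 11.5, 1 and 1 reads in WT (L2), WT (L3), WT (L4) and WTR, with 16 in *gk165* and 7 in R244H. Against WT (L2) set to the floor of 3 reads, *abf-6* was 4.49-fold higher in *gk165*, with an interval that began at log2 1.70. Its log2 ratio to WT (L3) was 1.49 (0.25 to 2.64). The R244H ratios of 3.84 (0.88 to 9.33) and 3.22 (0.26 to 8.72) rest on single reads in the controls. *abf-5*, its neighbour, had 15 reads in WT (L3) and 1 or 2 elsewhere.

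Summed over each family, the caenacins were higher in both mutants. Their CPM were 245 in WT (L2), 163 in WT (L3) and 930.2 in *gk165*, a log2 ratio of 1.92 (1.5 to 2.36) and 2.51 (2.16 to 2.87). They were 109 in WT (L4), 97.7 in WTR and 401 in R244H, a log2 ratio of 1.88 (1.5 to 2.28) and 2.04 (1.57 to 2.52). The fip sum was 1.73 and 1.3 above the controls in *gk165* and 1.13 and 1.44 in R244H. The fipr sum was 0.77 (0.42 to 1.12) and 0.40 (0.14 to 0.655) above the controls in *gk165*. In R244H the fipr sum was 0.75 (0.49 to 1.03) above WT (L4) and 1.49 (1.15 to 1.87) above WTR. The abf sum gave higher ratios than the caenacins in 3 of 4 cases but rests on 2 reads in each of WT (L2), WT (L4) and WTR, with 18 reads in *gk165* and 9 in R244H. Its log2 ratios were 2.92 (0.86 to 6.07) to WT (L2) and 0.35 (-0.57 to 1.28) to WT (L3) for *gk165*, and 3.20 (0.93 to 6.45) and 2.59 (0.31 to 5.84) for R244H. The lys sum moved less, with 719 CPM in *gk165* between WT (L2) at 379 and WT (L3) at 775, and 758 in R244H against 641 in WT (L4) and 632 in WTR. The ilys sum, which is mostly *ilys-5*, was 111 in R244H against 803 in WT (L4) and 767 in WTR, a log2 ratio of -2.85 (-3.35 to -2.42) and -2.79 (-3.30 to -2.35).

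**Figure D4:**
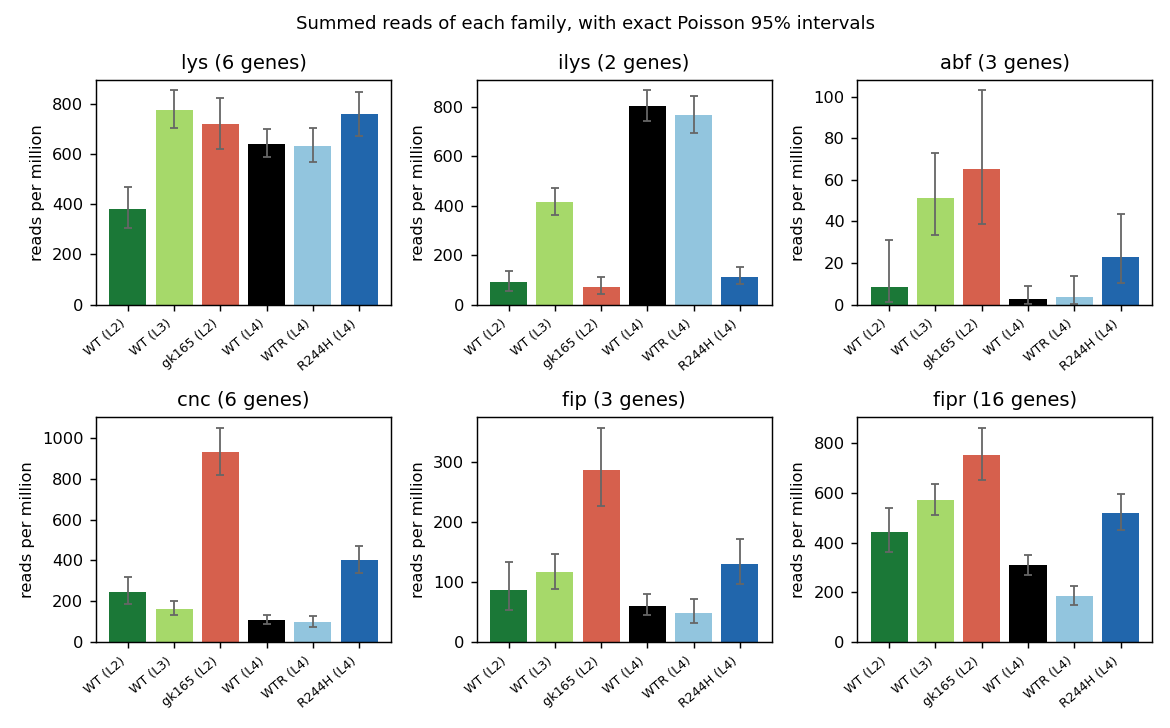
Summed CPM of each of the 6 families (y axis) in the 6 libraries (x axis), bars from 0 with exact Poisson 95% intervals for counting error. The cnc and fip bars are highest in *gk165* (930.2 and 286) and the ilys bars are high in WT (L4) and WTR (803 and 767) and low in *gk165* and R244H (70.5 and 111).

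Because of *ilys-5*, the sum over all 36 members did not show the peptides' excess in R244H. That sum was 1943 CPM for R244H, 1923 for WT (L4) and 1734 for WTR, a log2 ratio of 0.01 (-0.11 to 0.14) to WT (L4). Without *ilys-5* the ratios were 0.71 (0.57 to 0.86) and 0.92 (0.76 to 1.09). The abf, cnc, fip and fipr genes together were 1.17 (0.96 to 1.37) above WT (L4) and 1.68 (1.43 to 1.95) above WTR, and in *gk165* 1.38 (1.13 to 1.63) above WT (L2) and 1.18 (1.0 to 1.35) above WT (L3).

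The wild-type stages differed as well, and the controls of each mutant therefore matter. From WT (L2) to WT (L3), 7 of 26 members were higher, against 14.1% of all genes: *lys-4*, *lys-7*, *lys-8*, *ilys-5*, *abf-5*, *fip-2* and *fipr-1*. For 5 of them, all but *abf-5* and *fip-2*, the interval excluded no change, against 8.56% of all genes. The one lower member was *cnc-4*, by a log2 of -1.56 (-2.74 to -0.41), where 4.53% of all genes were lower, and 1.39% with an interval that excluded no change. From WT (L3) to WT (L4), 12 of 31 members were lower, against 17.1% of all genes, and these were mostly peptides: *abf-5*, *abf-6*, *cnc-3*, *cnc-10*, *fip-2*, *fip-5*, *fipr-1*, *fipr-2*, *fipr-4*, *fipr-7* and *fipr-10*, with *lys-7*. Among those with more than 3 reads in both libraries, the largest differences were those of *cnc-3*, at log2 -2.42 (-3.86 to -1.17), *fipr-1*, at -3.02 (-4.57 to -1.76), and *lys-7*, at -2.67 (-3.90 to -1.61). On 1 or 2 reads in WT (L4), the log2 ratio was -4.05 (-7.17 to -2.03) for *cnc-10*, -4.43 (-9.83 to -1.73) for *abf-5* and -4.05 (-9.53 to -1.35) for *abf-6*. Only *cnc-4* was higher in WT (L4) than in WT (L3), by 1.10 (0.17 to 2.13), where 20.6% of all genes were. The median of the members was 0.58 from L2 to L3 and -0.52 from L3 to L4, beside 0.20 and 0.08 for all genes.

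The place of the mutants among all 4 control libraries differed accordingly. The 12 members on the *gk165* list had their CPM in *gk165* above all 4 controls. Of the 11 on the R244H list, 5 were above all 4 controls (*cnc-4*, *cnc-8*, *fip-6*, *fipr-22* and *fipr-24*). Another 4 were above 3 of them, with WT (L3) higher for *abf-6*, *fip-2* and *fipr-1* and WT (L2) higher for *cnc-3*. For *cnc-10* and *fip-5*, R244H was above its L4 controls and below both WT (L2) and WT (L3).

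Few members were counted between WTR and WT (L4), but the peptides were lower in WTR. The abf, cnc, fip and fipr genes together had a log2 ratio of WTR to WT (L4) of -0.52 (-0.79 to -0.26). For the fipr sum it was -0.74 (-1.10 to -0.40). The median of the members was -0.28, beside 0.03 for all genes. *lys-7* was the single member higher in WTR, by a log2 of 2.20 (1.07 to 3.47), against 7.48% of all genes (3.19% with an interval that excluded no change), and *fipr-3* and *fipr-6* were lower, against 5.77% of all genes. For *fipr-3* there were 20 reads in WT (L4) against 4 for WTR, a log2 ratio of -1.71 (-3.71 to -0.13), where 2.9% of all genes were lower with such an interval, and *fipr-6* had 12 and 2. The exons of *fipr-3* overlap *F23D12.11* on the opposite strand.

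Many of these genes lie next to each other. All 36 are annotated on WBcel235, 21 of them on chromosome V, and 26 lie within 20 kb of another member, in 9 clusters. In the cluster of *cnc-11*, *cnc-4*, *cnc-3* and *cnc-2* (V:1442588-1450189), 3 of 4 genes were higher in *gk165* and 2 in R244H, and its summed reads were 36, 41, 51 and 29 in WT (L2), WT (L3), WT (L4) and WTR, 211 in *gk165* and 106 in R244H. In the pair *fip-6* and *fipr-26* both genes were higher in *gk165*, and in the pair *fipr-22* and *fipr-24* both were higher in R244H. In contrast, the cluster of 6 fipr genes at V:10220981-10239853 had 2 higher members in *gk165* (*fipr-4* and *fipr-7*) and none in R244H, and the *lys-1*, *lys-2* and *lys-3* cluster had none in either. Reads of near-identical neighbours can be shared, and 11 of the 36 genes had pooled reads that were not whole numbers, *fipr-4*, *fipr-22* and *abf-6* among them. Fractions were common in the whole table, where only 51.4% to 62.1% of the exons with reads held whole numbers in a library. They are thus no mark of these clusters.

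Other defence genes were examined as lists, to be read beside the 15.1% of all genes higher and 17.9% lower in *gk165* and the 11.4% higher and 21.9% lower in R244H. Of the 10 antimicrobial nlp peptides, relatives of the caenacins, 6 were higher in *gk165* and 4 in R244H, none lower. *nlp-29*, the epidermal reporter gene of infection and wounding, had 38, 76, 43 and 32 reads in WT (L2), WT (L3), WT (L4) and WTR, 531.5 in *gk165* and 82 in R244H. *nlp-24*, with 97, 240, 258 and 106 reads in the controls, had 84 in *gk165* and 129 in R244H and was in neither count, like *nlp-33*. Of the caenopores (spp), saposin-like pore-forming peptides, 5 of 15 were higher in *gk165* and 3 of 13 in R244H, none lower. *spp-14* had 137, 398, 254 and 242 reads in the controls, 3389 in *gk165* and 371 in R244H, a log2 ratio of 4.38 and 4.10 for *gk165* and 1.58 and 1.03 for R244H.

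Genes of the pathways known to control such peptides were examined in the same way, beside the same shares of all genes. No counting intervals are given for these lists, and some calls rest on few reads. Of the 8 genes of the p38 MAPK pathway that could be compared, none was counted in *gk165* and 3 were higher in R244H, the lowest on 12.5 reads. Of the DBL-1 pathway, 2 of 8 were lower in *gk165*, on 2.5 and 5 reads there. In R244H 4 of 10 were higher, on 5.3, 7.3, 14 and 140.5 reads. Of the genes of epidermal defence signalling, 2 of 8 were higher and 1 lower in *gk165* and 4 of 10 were higher in R244H. Of the transcription factors of gut defence, 1 of 8 was higher and 1 lower in *gk165* and 3 of 10 higher in R244H. Of the infection response genes (irg), 1 of 3 was higher in *gk165*, and 1 of 5 was higher and 1 lower in R244H. No thaumatin-like thn gene was counted, with at most 1 that could be compared.

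Tissue markers differed between the same libraries. In *gk165*, 4 of the 5 epidermal markers that could be compared were lower than in both controls and none higher (summed CPM 613.5 against 4007 in WT (L2) and 3361 in WT (L3)), while 3 of 5 caenacins and 6 of 10 nlp peptides were higher. The pharyngeal muscle markers were also lower there in 3 of 4, with *ceh-22* at 0 (summed 253 against 1076 and 2269), and of the 10 intestinal markers 3 were lower and 1 higher, with *elt-2* at 0 (summed 8902 against 4067 and 8458). Of the 6 pharyngeal gland markers, 2 were higher and 2 lower (summed 284 against 682 and 493). The epidermal markers include cuticle collagen genes such as *dpy-10*, which is transcribed in a burst within each larval stage. They therefore do not measure epidermal tissue alone. The part of tissue content and of time within the stage in the results for *gk165* was not tested.

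In R244H, 9 of 10 germline markers were lower than in both controls and none higher (summed 268 CPM against 2484 in WT (L4) and 2813 in WTR), as were 6 of 8 sperm markers, of which 4 were at 0 (summed 12.8 against 1032 and 1256). Of the 6 epidermal markers, the cuticle collagen genes *bli-1*, *dpy-7* and *dpy-10* were higher and *lin-26* was lower (summed 1745 against 1114 and 590.1), and of the 10 intestinal markers 2 were higher and none lower (summed 15412 against 9331 and 8598). No pharyngeal muscle marker and 1 pharyngeal gland marker were counted. *dpy-7* and *dpy-10*, which are transcribed in a burst within each larval stage, had 32 and 29 reads in R244H and at most 2 in WT (L4) and WTR, as against 82 and 99 in WT (L3). The part of germline content, tissue content and time within the stage in the R244H results was not tested.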

How the data were processed

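The authors prepared directional poly(A) libraries, sequenced them on a MiSeq, trimmed the reads (Trim Galore 0.4.1, cutadapt 1.14 per the submitters' processing notes), aligned them to WBcel235 with TopHat2 2.1.0 and counted merged exons of Ensembl release 94 with featureCounts. The deposited table holds log2 RPKM per exon from edgeR 3.26.8 for 53267 exons, filtered by the authors. The strand setting of the counting is not given in the sources used here.

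Each deposited log2 value includes an offset of 0.54 CPM (prior count 0.25). It was removed, and the reads behind each value were recovered from the steps between values, some of them fractions. The recovery was tested on simulated data. Reads were pooled per gene, since averaging exon values draws ratios of short exons towards 0, and divided by the effective library size. In each library 3 reads correspond to 3.75 to 12.9 CPM. Calls, floor and intervals (95%, exact Clopper-Pearson on reads rounded to whole numbers) were as described above, computed with Python 3.11.15, numpy 2.4.6, pandas 2.3.3 and scipy 1.17.1. Background shares were taken over all genes compared in the table. Intervals and floors cover counting error only, and reads without molecular identifiers are not independent molecules.

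Members with more than 20 reads in a library were described in full where they were counted in a comparison or were among the 5 most abundant, which held for 16. In other defence lists at most 3 genes with the most reads were named, with *elt-2*, *ceh-22* and the epidermal collagens named after their values were seen. The members and gene lists were chosen with earlier results of these data known. Overlapping genes were taken from Ensembl release 115 on WBcel235. No sequences were printed, as sequence tables were not used here. Alternatives were RPKM averaged over exons with pseudocounts of 1 and 0.1, both with a minimum of 5 RPKM in a library for the counts. Others were a floor of 10 reads, 0.5 reads added to every count with no floor, and totals of recovered reads as library sizes. Further settings were centred ratios, a threshold of 3-fold, the exon with most reads only, and, chosen after seeing the data, each control left out.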

Additional observations from a re-analysis of the deposited data

Results flagged for a closer look

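*fip-5* was the only member counted in opposite directions in the 2 mutants. Its log2 ratio was -1.42 for *gk165* to WT (L2) and -1.54 for *gk165* to WT (L3), while R244H gave 1.33 against WT (L4) and 1.42 against WTR. The difference between the mutants was not tested, since each condition has 1 library, and it rests on 4 to 23.5 reads per library. WT (L2) and WT (L3) had 9 and 23.5 reads of this gene and WT (L4) and WTR 6.5 and 4, so the levels of the controls differed too.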

How the results depend on the processing

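Every ratio in the report rests on 1 library per condition, so leaving out a replicate was not possible. No paired analysis was possible because each group has a single library and no fit can be made. Of the ratios of single members under the other settings, 738 stayed within their counting interval and 18 moved beyond it. In 28 values, of 18 of the 108 ratios, the sign changed. None of these ratios had reached 2-fold, and the largest of them in size was a log2 of 0.61. *ilys-5* and *lys-4* were counted as lower in R244H under every setting run, and *cnc-4* as higher.

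The counts of members higher in *gk165* and in R244H fell to 5 and 6 with a floor of 10 reads and to 5 and 6 with a 3-fold threshold. Among the alternatives, shares of all genes were computed only for centring and for each control left out. Members lower in *gk165* numbered 5 with exon-averaged RPKM (pseudocount 1 or 0.1), 1 with a floor of 10 reads, 1 with a 3-fold threshold and 5 with WT (L2) left out, an alternative chosen after seeing the data. Leaving out each of the other controls moved no count by over 1.5 times.

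From WT (L2) to WT (L3), higher members numbered 15 with either exon-averaged RPKM, 4 with recovered totals, and 3 with a floor of 10 reads, centring or 3-fold. Lower members numbered 3 with either exon-averaged RPKM, 5 with 0.5 reads added, 2 with recovered totals or centring and 0 at 3-fold. From WT (L3) to WT (L4), higher members numbered 4 with either exon-averaged RPKM or 0.5 reads added, and 0 with centring, 3-fold or the exon with most reads. In WTR against WT (L4), higher members numbered 2 with either exon-averaged RPKM or 0.5 reads added, and lower members 7 with either exon-averaged RPKM, 6 with 0.5 reads added, 0 with a floor of 10 reads and 1 at 3-fold. The cause of these shifts was not tested. The 12 lower members from WT (L3) to WT (L4) numbered 8 to 14 under the other settings. At this depth 3 reads are 3.75 to 12.9 CPM.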
